A study of Neurospora crassa with 20 samples.

Results

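The regions described here are the WT H3K4me3 peaks of dark-grown Neurospora crassa that were touched by H3K9me3 of the strain without the H3K4 methyltransferase, Δkmt2/Δset-1. An H3K4me3 peak was taken as a member when at least 1 bp of it lay in a Δkmt2/Δset-1 DD H3K9me3 peak, from the positions in the lists alone. There were 34 such peaks among the 4446 WT DD H3K4me3 peaks on the 7 chromosomes, which is 0.765% of them. The question behind the comparison was whether H3K9me3, in a strain that cannot methylate H3K4, enters the places that carry H3K4me3 in WT. The member with the fewest bases held 29 bp of H3K9me3, and the closest H3K4me3 peaks outside the rule lay 2 bp and 3 bp away from H3K9me3. Within 100 bp of that edge there were 22 untouched H3K4me3 peaks, against 14 members with at most 100 bp inside.

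Both marks were measured by ChIP-seq in mycelia, with 20 samples in 10 groups of 2. Cultures of 3 strains, WT and the deletions Δkmt2/Δset-1 and Δkmt1/Δdim-5, had been in light before they were moved to constant dark for 24 h (DD), and some were given light for 30 min before harvest (LP30). The comparison rests on WT DD H3K4me3, WT DD H3K9me3 and Δkmt2/Δset-1 DD H3K9me3, and the LP30 groups serve as a second condition. Each mutant is a single strain with a whole gene deleted, obtained from the knockout collection and crossed back to WT, so the deletion is present throughout growth. The deletion strains also supplied the background. H3K9me3 peaks of both strains were called over the H3K9me3 ChIP of Δkmt1/Δdim-5 DD, and H3K4me3 peaks over the H3K4me3 ChIP of Δkmt2/Δset-1 DD. The H3K4me3 ChIP of Δkmt2/Δset-1 was therefore available here as a background and not as a peak list.

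Trimethylation of lysine 4 on histone H3 is laid down by SET-1 (KMT2) in the COMPASS complex and is found mainly over the start of transcribed genes. Trimethylation of lysine 9 is laid down by DIM-5 (KMT1), is read by the heterochromatin protein HP1, and in Neurospora directs DNA methylation to A:T-rich relics of repeated DNA at centromeres, telomeres and dispersed sites. The marks generally occupy different stretches of the chromosome, and how the border between them is held is a long-standing question in chromatin biology.

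A single list was used for each strain, condition and mark, with no values per replicate, so no value below has a spread over replicates and no test compares the strains over cultures. The lists state no read totals, and the depth behind each peak is unknown apart from the pileups derived from the H3K4me3 values. The Δkmt2/Δset-1 DD H3K9me3 list held 813 peaks over 7.78 Mb of the chromosomes and the WT DD list 678 peaks over 7.14 Mb, while WT DD H3K4me3 covered 6.54 Mb, 16.2% of the chromosome bases. The gene deleted in each background strain is a check of the labels, since reads are missing from the background there. The set-1 gene lay under H3K4me3 of fold 5.24 over 5590 bp, and dim-5 lay under H3K9me3 in both strains.

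H3K9me3 of Δkmt2/Δset-1 stayed almost wholly outside WT H3K4me3. The 34 members shared 8.03 kb with it, which was 0.123% of the H3K4me3 bases and 0.103% of the H3K9me3 bases. To set a scale, the H3K4me3 peaks were shifted together by a random distance along each circularised chromosome 1000 times. The shifted peaks were touched 971 times in the median (95% of shifts: 857 to 1053), and no shift gave fewer than 776. The shared bases were 1248 kb in the median shift. In this one-sided circular-shift permutation test both the count and the bases gave a p of 0.001 for a deficit, the smallest that these shifts can give, and a p of 1 for an excess. Counted from the other mark, 31 of the 813 Δkmt2/Δset-1 H3K9me3 peaks (3.81%) touched H3K4me3, against 359 in the median shift. Those 31 were mostly large domains, with a median width of 14203 bp and a median fold of 1.76, and 25 of them had q under 0.01. The 782 that touched none had a median width of 2015 bp and a median fold of 1.15, and 312 had q under 0.01.

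The same measure in WT shows the baseline. WT DD H3K9me3 touched 56 WT H3K4me3 peaks (1.26%) and shared 25.8 kb with them, through 50 of its 678 peaks (7.37%). Between the strains, 25 H3K4me3 peaks were touched in both, 9 in Δkmt2/Δset-1 alone (0.202%) and 31 in WT alone (0.697%). The shifted peaks were touched in the mutant alone 126 times in the median (102 to 150), with a p of 0.001 for the deficit in the permutation test, and in WT alone 35 times (24 to 47), with a p of 0.299. The mutant list covered more of the chromosomes than the WT list yet shared 17.8 kb less with H3K4me3. The median shift gave the mutant 102 kb more (76.0 to 129 kb, p of 0.001 for a difference this low in the permutation test). The lowest shift gave 58.0 kb more, so equal shared bases in the strains would also have given this p. The test therefore does not compare the strains. Much of the 17.8 kb came from the peaks of NCU09968, NCU09969 and NCU16528, treated below. Without these genes, dim-5 (covered over as many bases in both strains) and their peaks, called the 4 genes from here on, the shared bases came to 7.24 kb for the mutant and 12.0 kb for WT, a difference of -4.73 kb. The p of the permutation test was again 0.001, with the same limit.

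**Figure D1:**
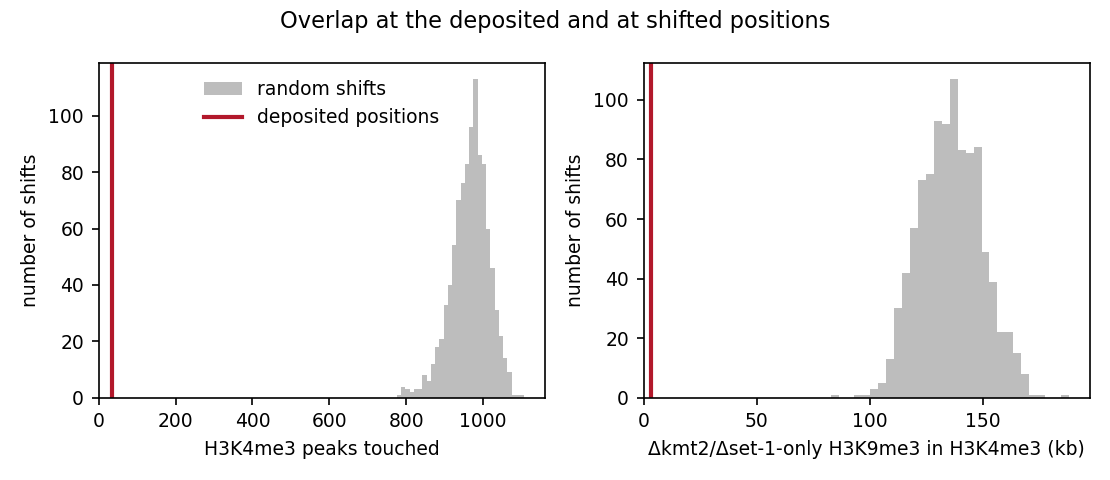
Histograms of 1000 circular shifts (grey) for the number of WT DD H3K4me3 peaks touched by Δkmt2/Δset-1 DD H3K9me3 (left) and for the kb of H3K9me3 present in Δkmt2/Δset-1 and absent from WT that fall in H3K4me3 (right), with the number of shifts on the vertical axes. The red lines mark the values at the deposited positions, 34 peaks and 3.47 kb, which lie below every shift.

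The H3K9me3 that Δkmt2/Δset-1 had beyond WT bears most directly on entry. It amounted to 856 kb, and 3.47 kb of it (0.406%) lay in H3K4me3. Outside WT H3K9me3 as a whole, 19.5% of the bases were H3K4me3. Shifting gave 136 kb in the median (111 to 164 kb), and shifting along chromosomes from which WT H3K9me3 had been removed gave 165 kb (138 to 194 kb), each with a p of 0.001 for the deficit in the permutation test. The shifts and the 19.5% treat all positions alike, whereas 6025 of 7144 kb of WT H3K9me3 lay over 5 kb from H3K4me3. Much of the added H3K9me3 extended WT domains. These p-values therefore cannot tell a deficit at H3K4me3 from placement beside domains far from it. Extensions of domains that WT also had made up 435 kb, of which 2440 bp (0.562%) reached H3K4me3. Peaks with no WT counterpart made up 421 kb, of which 1034 bp (0.245%) did. Of the 327 separate peaks 3 touched an H3K4me3 peak, and of the 486 that overlapped WT H3K9me3 28 did. Those 3 separate peaks did not reach q under 0.01. Their −log10 q was 1.11 at NCU08333, 0.640 at NCU03968 and 1.15 at a gene-free peak of chromosome V. The H3K9me3 present in WT and absent from the mutant was a smaller set of 215 kb, with 21.3 kb (9.87%) in H3K4me3 against 33.9 kb in the median shift (p of 0.00799 for a deficit in the permutation test), and that share was 4.09% without the 4 genes.

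Measured by distance, the additional H3K9me3 of the mutant began some way from the H3K4me3 edge. Within 500 bp outside an H3K4me3 peak, Δkmt2/Δset-1 had 46.3 kb of H3K9me3 (1.16% of the bases) and WT 55.9 kb (1.40%). Between 500 and 1000 bp the order turned, with 82.6 kb in the mutant and 77.4 kb in WT. From 1 to 5 kb the mutant had 1149 kb (8.56%) and WT 960 kb (7.15%). This surplus at 1 to 5 kb was seen on 7 of 7 chromosomes, whereas the lower value inside the peaks was seen on 6 and that within 500 bp on 5. With q under 0.01 required in both H3K9me3 lists, the surplus at 1 to 5 kb shrank from 189 kb to 25.1 kb and that beyond 5 kb from 474 kb to 130 kb, while the difference at 500 to 1000 bp turned to -2.02 kb and that within 500 bp kept its sign, at -6.16 kb. Bases of a single chromosome are not independent of each other, and no test was made between the zones.

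**Figure D2:**
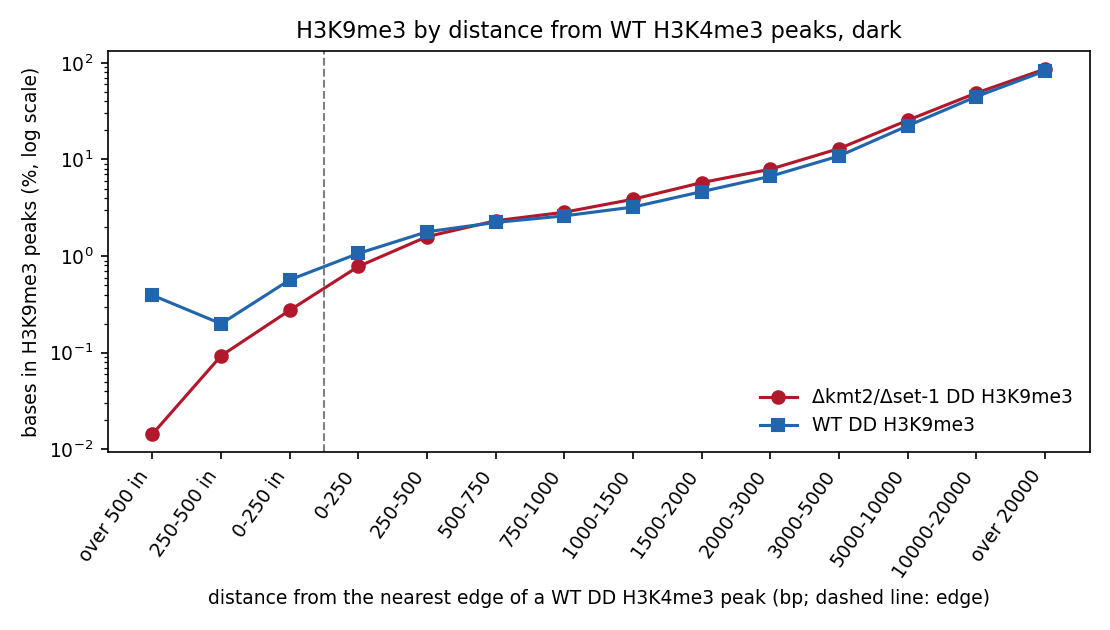
Percentage of bases in H3K9me3 peaks (vertical axis, log scale) by distance in bp from the nearest edge of a WT DD H3K4me3 peak, for Δkmt2/Δset-1 DD (red) and WT DD (blue), with positions inside the peaks to the left of the dashed line. Both lists rose by orders of magnitude away from H3K4me3, the mutant lay below WT up to 500 bp and above it from there on (from 1000 bp on with q under 0.01 in both lists), and without the 4 genes the deepest bin held 0.348 kb in the mutant and 0.177 kb in WT.

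The 9 peaks with H3K9me3 in Δkmt2/Δset-1 and none in WT differed widely in how much was covered. The largest was over NCU06420 on chromosome III (NC12 positions 1346296 to 1347111), an H3K4me3 peak of 816 bp that lay whole inside an H3K9me3 peak of 7526 bp and fold 1.94. WT DD H3K9me3 lay 214 bp away from it, and in LP30 the order was reversed, with 196 bp covered in WT and none in the mutant. NCU03968 on chromosome VI had 533 of 614 bp covered, by a separate H3K9me3 peak of fold 1.13 whose −log10 q was 0.640, and its H3K4me3 peak was as faint, at fold 1.13. In LP30 none of it was covered in either strain. This gene lies close to vvd, which encodes the blue-light photoreceptor VIVID, and the 321 bp of WT DD H3K9me3 inside vvd were not in the mutant list. The paper, in contrast, describes H3K9me3 at vvd as not affected in Δkmt2/Δset-1. The nearest mutant DD H3K9me3 peak lay 488 bp from vvd. The absence of a called peak therefore does not show a loss there, and the reason for the difference was not tested. A gene-free H3K4me3 peak at positions 393261 to 393583 of chromosome VI was covered over its whole 323 bp by the end of a domain of 36247 bp.

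The other 6 were smaller overlaps. NCU08333 on chromosome I held 273 of 505 bp, from a 273 bp H3K9me3 peak of fold 1.09 that lay inside the H3K4me3 peak, the single case of this kind. A gene-free peak on chromosome V (positions 3986773 to 3987000) was covered over all of its 228 bp, and in LP30 it was covered in both strains. NCU06429 held 138 of 2332 bp, NCU07815 held 83 of 270 bp, NCU05338 held 35 of 675 bp and NCU09526 held 30 of 1057 bp. In those 4 genes the H3K9me3 came from the edge of a domain that overlapped WT H3K9me3, and the nearest WT DD H3K9me3 lay 352, 782, 290 and 59 bp from the H3K4me3 peak. None of the 7 loci named in this set has a gene symbol in the annotation used, and no role is given for them.

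In the 25 peaks touched in both strains the covered stretch mostly differed little. The bases covered were within 100 bp of each other in 20 of 25, the mutant had more in 8, fewer in 13 and as many in 4, with medians of 130 bp for the mutant and 198 bp for WT. NCU10053 on chromosome VII was the exception toward entry, with 1192 of 1192 bp covered in the mutant and 340 bp in WT. That did not recur in LP30, where 262 bp were covered in the mutant and 292 bp in WT. NCU10069 on chromosome I went the other way, with 297 bp in the mutant and the whole 977 bp in WT. NCU01835 on chromosome II (656 and 677 bp) and NCU06598 on chromosome IV (285 and 263 bp) were nearly alike in the strains. A trio of gene-free peaks, at 304 and 216 bp on chromosome VI and 298 bp on chromosome VII, lay whole inside H3K9me3 domains in either strain. Among the smaller overlaps was cdp-2, which encodes a chromodomain protein of a histone deacetylase complex acting in heterochromatin, with 29 bp in the mutant and 242 bp in WT.

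The gene dim-5, which encodes the H3K9 methyltransferase itself, had 750 of 1012 bp covered in both strains, by H3K9me3 peaks of fold 1.19 in the mutant and 1.20 in WT. The background of those lists comes from the strain in which dim-5 is deleted, so H3K9me3 over the gene and the absence of background reads from it cannot be told apart. At NCU16528 on chromosome II, 42 bp of a 3134 bp H3K4me3 peak were covered in the mutant and all of it in WT. The H3K4me3 background at its summit, read from Δkmt2/Δset-1, was 83.2 pileup units, against a median of 221 over all H3K4me3 peaks. The loss of H3K9me3 there and fewer reads from the mutant strain cannot be told apart.

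**Figure D3:**
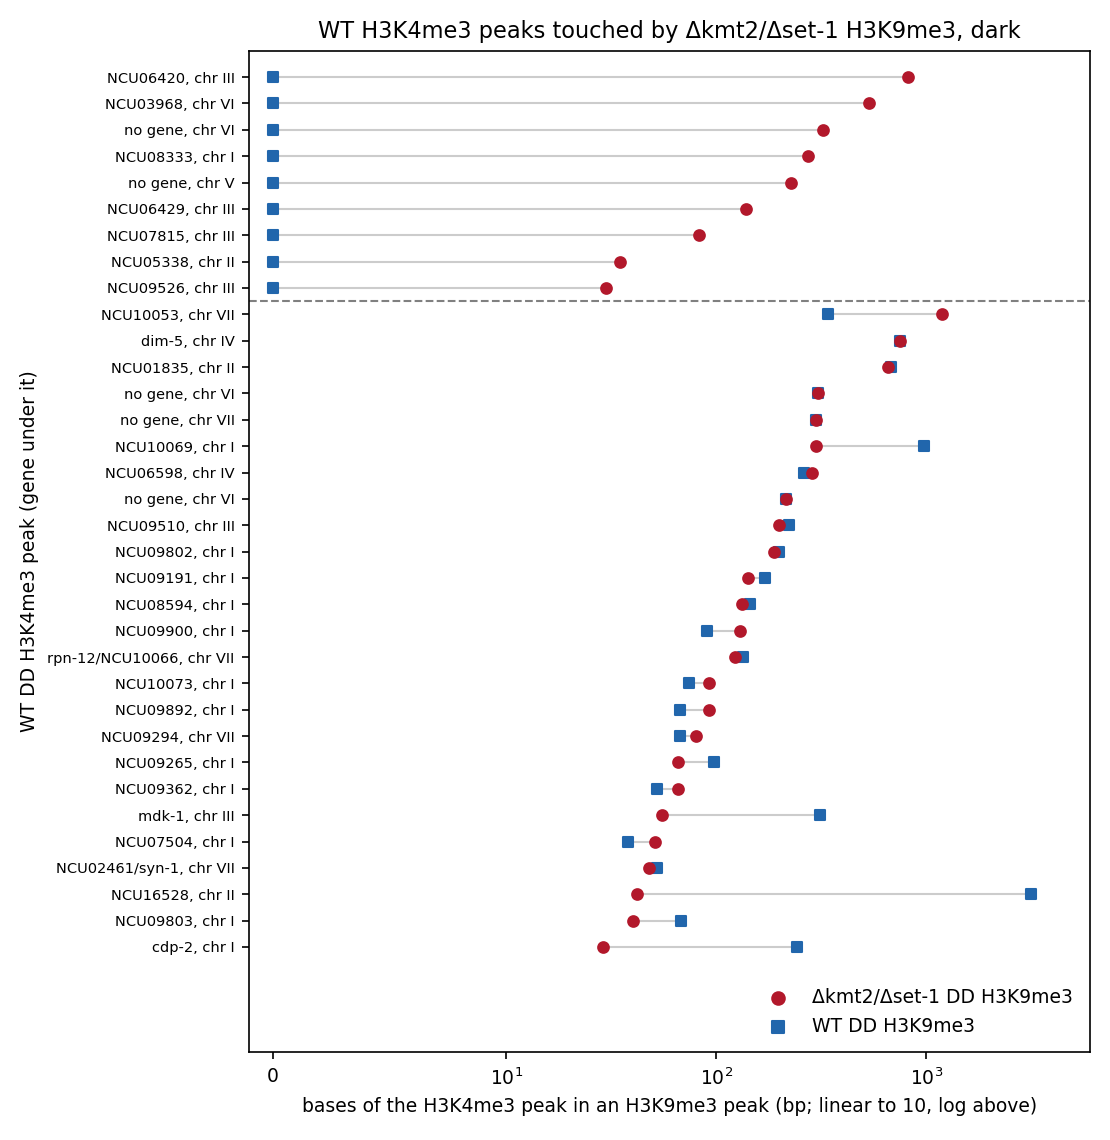
Bases of each of the 34 WT DD H3K4me3 peaks that lay in H3K9me3 of Δkmt2/Δset-1 DD (red circles) and WT DD (blue squares), in bp on an axis that is linear to 10 and logarithmic above, with the genes under each peak on the vertical axis. The 9 peaks above the dashed line had no WT H3K9me3, and among the 25 below it the markers lie close together except at NCU10053, NCU10069, NCU16528, mdk-1 and cdp-2.

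In most members H3K9me3 lay at an edge. It covered an edge in 26 of 34, the whole peak in 7 and an inner stretch in 1. The edge overlaps had a median of 92 bp (29 to 750 bp) in peaks with a median width of 1422.5 bp. A member had 135 bp covered in the median, or 9.44% of its width, and 19 members had less than a nucleosome's length of DNA. The midpoint was covered in 10 of 34 (29.4%), and the summit was covered in 10 as well. In the median shift the midpoint was covered in 87.5% of touched peaks (85.2% to 89.5%, p of 0.001 for a share this low in the permutation test). Peaks shifted at random often fall inside long H3K9me3 domains, so this p cannot be separated from the deficit of touched peaks. The 7 members covered whole were 216 to 1192 bp wide. Of these, 5 were under 500 bp and 5 had no gene under them. Placement was much alike in WT, so it was not particular to the mutant. WT DD H3K9me3 covered an edge in 39 of its 56 touched peaks, the whole peak in 16 and an inner stretch in 1, with the midpoint covered in 22.

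Members were somewhat narrower than H3K4me3 peaks at large. Their median width was 1226 bp, against 1434.5 bp over all 4446 peaks and 1457 bp (1420 to 1498 bp) for peaks touched after shifting. The permutation test gave a p of 0.001 for a median this low. Each shift touched far more peaks than 34 (971 in the median), so the shifted medians spread less. This p therefore does not show how unusual 1226 bp is for 34 peaks. The 9 peaks touched in the mutant alone had a median of 614 bp, the 25 touched in both 1391 bp, and the 31 touched in WT alone 501 bp. H3K4me3 itself was of ordinary strength at the members, with a median fold of 1.77 against 1.73 over all peaks, but 29 of 34 (85.3%) had q under 0.01 against 94.0%, and 5 of 34 (14.7%) had no gene under them against 1.62%. In the 9 peaks touched in the mutant alone the median fold was 1.30, and 6 had q under 0.01.

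Whether the members carried H3K4me3 in other lists was read as a description. WT LP30 H3K4me3 lay at 33 of 34 members (97.1%), as at 97.0% of all peaks. Δkmt1/Δdim-5 DD H3K4me3 lay at 24 of 34 (70.6%), against 95.5% of all peaks, and at 5 of the 9 touched in the mutant alone and 19 of the 25 touched in both. Among the 31 touched in WT alone it lay at 13 (41.9%). The members without Δkmt1/Δdim-5 DD H3K4me3 include the peak of dim-5, which is among the 25 touched in both. That gene is deleted in Δkmt1/Δdim-5, so H3K4me3 could not be read from it in that strain. These lists share the H3K4me3 background of Δkmt2/Δset-1 DD, so they are not independent of the list that defined the peaks.

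Some H3K4me3 peaks held H3K9me3 in WT alone, and those with the most bases formed a single locus. NCU09968 and NCU09969, a pair of genes with overlapping spans on chromosome VI, lay under an H3K4me3 peak of 8473 bp (positions 309422 to 317894), of which 8417 bp were in WT DD H3K9me3 and none in that of the mutant. A further 1044 and 501 bp of H3K4me3 in NCU09969 followed the same pattern, and in LP30 the WT list covered 8403, 1044 and 501 bp and the mutant list none. The H3K4me3 fold of the long peak was 96.9, from 421 pileup units in the WT ChIP and 3.36 in the Δkmt2/Δset-1 background, and the background stood at 49.3 and 57.4 in the shorter peaks. The H3K9me3 list of the mutant also came from Δkmt2/Δset-1, so at this locus the loss of H3K9me3 and few reads from the strain cannot be told apart. The remaining large cases were NCU08521 on chromosome III with 919 bp, a gene-free peak on chromosome I (positions 8173606 to 8174286) with 681 bp, and NCU08431 on chromosome II with 569 bp, each covered whole in WT DD and not in the mutant. The WT H3K9me3 had fold 1.93 at NCU08521. At the gene-free peak and NCU08431 it was faint, with folds of 1.14 and 1.13 and −log10 q of 0.744 and 0.751. Their H3K4me3 peaks did not reach q under 0.01 either, with −log10 q of 0.824 and 1.42.

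At the scale of genes, H3K9me3 seen in the mutant alone lay mostly in genes without H3K4me3 in WT. Of the 9729 protein-coding genes, 380 held H3K9me3 in Δkmt2/Δset-1 DD and none in WT DD, and 43 of these (11.3%) also had a WT DD H3K4me3 peak, against 46.2% of all protein-coding genes. The share was 15.2% (56 of 368) in genes with H3K9me3 in both strains and 38.3% (31 of 81) in genes with it in WT alone and 49.0% in genes with it in neither. Shorter genes have fewer H3K4me3 peaks, and the 380 genes were shorter, with a median of 1531 bp against 2129 bp. Within length classes the shares were 0 of 115 genes under 1 kb against 7.87%, 5.15% of those from 1 to 2 kb against 38.0%, and 27.9% of those of at least 2 kb against 59.2%. In the 43 genes with both marks, the marks overlapped in 8 and lay apart in 35, with a median gap of 892 bp (40 to 5364 bp). Examples in which they lay apart were cre-1, which encodes the carbon catabolite repressor, with 120 bp of H3K9me3 and a gap of 858 bp, and mus-10, a gene needed for resistance to mutagens, with 447 bp and a gap of 641 bp.

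Genes of the clock, the light response and heterochromatin were counted as lists, against backgrounds so low that counts near 0 set them apart from no other genes. Of all protein-coding genes 7.69% held Δkmt2/Δset-1 DD H3K9me3 and 4.62% WT DD H3K9me3, and 0.765% of all H3K4me3 peaks were members. A WT DD H3K4me3 peak lay in 46.2% of all protein-coding genes. Of 14 genes of the clock and light response, 6 had a WT DD H3K4me3 peak, which is near that share. They included wc-1 and wc-2 for the White Collar photoreceptor complex, frh for the helicase that partners FRQ, and al-2 and al-3 of carotenoid synthesis (at al-3 over 245 bp, with fold 1.14). None of the 14 had a called H3K9me3 peak in Δkmt2/Δset-1 DD, and vvd was the one with a WT DD H3K9me3 peak. At frq, the central clock gene, the DD lists held no WT H3K4me3 peak, and the nearest H3K9me3 peak was 116 kb away in both strains. The paper, in contrast, reports WT H3K9me3 near the c-box of frq that was missing in Δkmt2/Δset-1, and H3K4me3 near the start of the antisense transcript qrf. It also reports that WT H3K9me3 there rose after light, and the LP30 lists at frq are not described here. The absence of a called peak therefore does not show that frq lacks the marks, and the reason for the difference was not tested. Of 10 genes that make, read or counter heterochromatin, 7 had H3K4me3, against the same 46.2%, a difference that was not tested. The 7 include set-1, which is deleted in the strain that supplied the H3K4me3 background. H3K4me3 over set-1 and the absence of background reads from it cannot be told apart. Also among the 7 were dim-7, dim-8 and dim-9, whose products form a complex with DIM-5, and hpo, which encodes HP1. Among the 10 genes dim-5 was the one with Δkmt2/Δset-1 H3K9me3, and dim-9 had 16 bp of WT H3K9me3 outside its H3K4me3 peak. At NCU02913 an H3K4me3 peak of 341 bp was wholly covered in WT DD and not in the mutant, and its neighbour NCU16472 had 231 bp of WT H3K9me3 and no H3K4me3 peak. NCU10058, NCU10059 and NCU16377 on chromosome I each had H3K4me3, and in none of them was there H3K9me3 in either strain, although it came within 74 bp of NCU10058 in the mutant and 86 bp in WT.

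Members were spread over 7 chromosomes. Chromosome I had 13, III had 6, VII had 5, VI had 4, II had 3, IV had 2 and V had 1, which was from 0.135% (V) to 1.18% (VII) of the H3K4me3 peaks there. Shifting gave between 96 (VI) and 217 (I) touched peaks per chromosome in the median. Of the 9 peaks touched in the mutant alone, 4 were on chromosome III and none on IV or VII. The H3K9me3 that the mutant had beyond WT lay in H3K4me3 for 0.0238% of its bases on IV and 1.04% on VI, while H3K4me3 covered 13.7% to 18.0% of the chromosomes. Chromosome VII was the one on which more H3K4me3 was covered in the mutant than in WT, 1741 against 1526 bp.

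**Figure D4:**
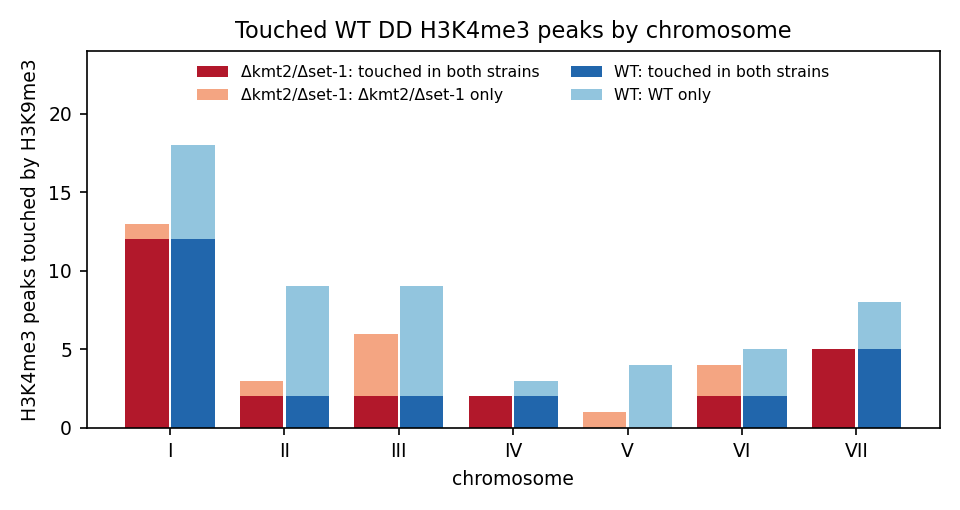
Number of WT DD H3K4me3 peaks touched by H3K9me3 on each of the 7 chromosomes (bars from 0), for Δkmt2/Δset-1 DD (left bar of each pair, red) and WT DD (right bar, blue), split into peaks touched in both strains and in one alone. Chromosome I holds 13 of the 34 touched in the mutant, and WT has the higher count on every chromosome.

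LP30 cultures, which the rule did not use, gave a second reading. Δkmt2/Δset-1 LP30 H3K9me3 touched 28 of the 34 members, against 37 (0.832%) of all WT DD H3K4me3 peaks. Of the 25 peaks touched in both strains in DD, 24 were touched in LP30 by each strain. Of the 9 touched in the mutant alone, 4 were touched again in the mutant after light, 3 of them without WT LP30 H3K9me3, against 11 of all 4446 peaks (0.247%). Those 3 were NCU06429 with 47 bp, NCU09526 with 40 bp and the gene-free peak of chromosome VI with 323 bp, and 4 of the 9 were touched by neither strain in LP30. Of the 31 touched in WT alone, WT LP30 touched 23 and the mutant 2. The LP30 lists share the Δkmt1/Δdim-5 DD background with the DD lists, so the recurrence is not independent of it.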

How the data were processed

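ChIP-seq reads were mapped by the authors to NC12 with BWA, and peaks were called with macs2 (version not given in the sources used here), as broad peaks for H3K9me3 and narrow peaks for H3K4me3, at a permissive p cutoff, with 1 list per condition (the step at which replicates were combined is not given in the sources used here). The deposited lists hold positions, a whole-number score (10 times a −log10 value), the fold enrichment as a ratio of ChIP to background, and −log10 p-values and q-values. The permissive cutoff admits weak peaks, and single lists leave no error over replicates. The authors' score was not used.

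Overlaps were computed with Python 3.11.15, numpy 2.4.6 and scipy 1.17.1, and checked with bedtools 2.31.1. A touch was 1 bp or more. The 3 H3K4me3 peaks off the chromosomes were left out, as were 14 Δkmt2/Δset-1 and 13 WT H3K9me3 peaks, among which 2 pairs of peaks overlapped for each strain. Chromosome ends were taken as the last base reached by a peak or gene. Circular shifts (1000, seed 20190508) kept the spacing of the H3K4me3 peaks and gave one-sided p-values with a threshold of 0.05. They measure placement along the chromosomes, not variation between cultures. They were tested on simulated lists with known overlap. Summit pileups were solved from the deposited fold and p-value, with a pseudocount of 1, and 96.6% of 4446 ChIP pileups came out whole within 0.02. A gene was under a peak if 1 bp was shared, for 10397 annotated genes without strand.

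Peaks were named by rule: up to 15 touched in the mutant alone (9 existed), the 8 with most bases in both strains, the 5 with most bases in WT alone, and genes named by the study. cdp-2, mdk-1, cre-1 and mus-10 were added after their values were seen. Members and lists were chosen with earlier results of these data known. Alternatives were the minimum overlap, q under 0.01, joining of H3K9me3 peaks within 500 bp, other shifts and chromosomes left out. GC content and sequence were not analysed here.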

Additional observations from a re-analysis of the deposited data

How the results depend on the processing

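Each alternative for the deficit of touched peaks, shared bases, mutant-only peaks and mutant-only bases kept its direction, with a p of 0.001 in the circular-shift permutation test, except 0.003 for mutant-only peaks when q under 0.01 was required in the mutant list alone. The deficit was smaller at that q: 6 mutant-only peaks stood against a shifted median of 28 with q under 0.01 in both lists and of 17 in the mutant list alone, where 9 stood against 126 without it, and mutant-only bases were 2409 bp against 34096 bp. Counts moved with the overlap required: 15 peaks were touched over at least a nucleosome's length of DNA and 10 over at least 50% of the peak, and 5 and 5 of them in the mutant alone. Requiring no WT DD H3K9me3 within 1 kb left 4 mutant-only peaks. Without chromosomes one at a time, touched peaks ranged from 21 (without I) to 33, shared bases from 6290 to 7803 bp, mutant-only peaks from 5 (without III) to 9, mutant-only bases in H3K4me3 from 2407 to 3439 bp, and the difference from WT in shared bases from -17999 to -8678 bp (without VI). Without the 4 genes, a choice made after seeing the data, that difference was -4730 bp (-4.73 kb), since the peaks of NCU09968, NCU09969 and NCU16528 supplied the rest and dim-5 none. Among the distance zones, also added after seeing the data, q under 0.01 in both H3K9me3 lists gave -6.16 kb at 0 to 500 bp, a reversed -2.02 kb at 500 to 1000 bp and 25.1 kb at 1 to 5 kb, and the cause was not tested. No paired analysis was possible because each condition has a single list with no values per replicate. Overlaps of a few bp lie at the limit of peak edges, whose precision cannot be known without read totals.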
